A study of Homo sapiens with 24 samples.

Results

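This account covers 6 of the 24 libraries of the series: 3 libraries of A549 cells treated with compound 2 and 3 of A549 cells given DMSO, the solvent used as the vehicle control. They were taken by their labels, and all 6 were used. The series measured polyadenylated RNA of A549, an established line from a human lung adenocarcinoma, after chemical inhibition or siRNA depletion of the kinase TAOK2. Compound 2 is known here only by its code name, and the labels call it an inhibitor of TAOK2 kinase activity. The sources used here state neither its dose nor how long cells were exposed. All whole-cell titles, of treated and control cells alike, carry the word mock, whose meaning is not given. Each group has 1 library in each of batches A, B and C. Whether the batches are separate cultures is not stated, so p-values measure the spread between these libraries only. A control siRNA group and a TAOK2 siRNA group, 3 libraries each, stand beside them in the same table.

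RNA polymerase II starts a transcript at the promoter and makes a polyadenylated messenger RNA only if it reaches a cleavage site at the end of the gene. Many introns hold cleavage signals of their own, and RNA cut there is shorter than the full message. Elongation kinases such as CDK12, with its partner cyclin K, phosphorylate the tail of the polymerase, and loss of CDK12 activity is known to favour use of such intronic sites, most of all in long genes. TAO kinases are upstream kinases of the p38, JNK and Hippo cascades. DDIT3 encodes CHOP, a transcription factor induced when the translation initiation factor eIF2α is phosphorylated, in what is called the integrated stress response.

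The deposited values are in TPM, a level per length of transcript and a share of a fixed total, so a rise of some RNAs lowers the value of all others. Sequencing depth cannot be recovered from them. Gene sums of the DMSO libraries correlated with each other at 0.987 to 0.994 across genes, those of compound 2 at 0.984 to 0.994, and DMSO with compound 2 at 0.936 to 0.951. Markers of the epithelial line were present: their summed level was 14567 to 16648 TPM with DMSO and 13994 to 17385 with compound 2, and 0 of 10 tested members passed the test. The alveolar genes SFTPC, SFTPB and NKX2-1 were under 1 TPM in all 6 libraries. Of 12 leukocyte markers, 9 were under 1 TPM in all 6 libraries, and their sum was 27.6 to 32.2 TPM with DMSO and 29.2 to 33.0 with compound 2. Summed endothelial markers were 1.72 to 1.97 TPM with DMSO and 2.42 to 2.84 with compound 2. Fibroblast markers summed to 18.7 to 36.1 TPM with DMSO and 16.9 to 42.6 with compound 2, and neuronal markers to 304 to 421 and 332 to 423. Most of the neuronal sum was TUBB3, at 253 to 378 TPM with DMSO and 309 to 399 with compound 2. Of 6 neuronal markers tested, 0 rose and 2 fell, where 12% of all genes tested rose and 51.8% fell. SYT1 was at 15.3 to 20.7 TPM with DMSO and 5.59 to 6.86 with compound 2.

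With compound 2 the summed TPM of more genes fell than rose, a small number rose strongly, and shares within genes changed in many genes. 4 genes frame the response: the stress factor gene DDIT3 and the kinase gene CDK12 fell, whereas EID3 and KANSL1 rose. DDIT3 (chr12:57516588-57521737, minus strand, GRCh38) stood at 156, 137 and 113 TPM in DMSO batches A, B and C and at 10.7, 20.0 and 10.9 TPM with compound 2. CDK12 (chr17:39461511-39564907, plus strand) stood at 52.3, 45.9 and 47.9 TPM with DMSO and at 9.36, 12.6 and 10.8 with compound 2. In both genes every treated library was far below every control library. EID3, which encodes a subunit of the SMC5/6 complex that acts in DNA repair (chr12:104303739-104305205, plus strand), stood at 11.3, 8.20 and 8.13 TPM with DMSO and at 469, 408 and 378 with compound 2. KANSL1, the scaffold of the non-specific lethal histone acetyltransferase complex (chr17:46029916-46225389, minus strand), stood at 16.8, 14.4 and 14.4 TPM with DMSO and at 121, 93.9 and 91.8 with compound 2. Again the groups did not overlap. On the log2(TPM + 1) scale the changes were -3.24 ± 0.19 (SE) for DDIT3, -2.07 ± 0.10 for CDK12, 5.37 ± 0.19 for EID3 and 2.66 ± 0.11 for KANSL1. Their adjusted p-values in limma were 6.32e-08, 8.21e-09, 1.72e-09 and 1.95e-09. KANSL1 lies in a region with alternate haplotype sequences, so some of its TPM may sit under transcript identifiers that were not matched.

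Over all 13106 genes tested, those averaging 1 TPM or more, 1571 rose (12%) and 6783 fell (51.8%) at an adjusted p under 0.05 in limma. At 2-fold or more, 172 rose (1.31%) and 2221 fell (16.9%). The median change of all genes was -0.31 on the log2 scale, so the excess of falls is partly a matter of scale. Centring each library on its median difference from the gene means gave 4262 higher and 4083 lower, centring on the library median gave 5662 and 3189, and rescaling without mitochondrial and ribosomal protein genes gave 1951 and 6322. Falls of gene sums are therefore read below against that median. In bulk RNA, fewer cells of a kind and less RNA per cell cannot be told apart.

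TAOK2, the stated target of the compound (chr16:29973641-29992261, plus strand), stood at 39.7, 40.6 and 37.5 TPM with DMSO and at 21.5, 30.7 and 20.5 with compound 2. Its gene sum was lower in every treated library, by -0.70 ± 0.15 (limma adjusted p = 0.00136). That call was lost when libraries were centred on their medians, where the change was -0.19. TAOK3 fell by 0.92 and TAOK1 by 0.36 on the log2 scale (adjusted p = 1.25e-05 and 0.0126 in limma). The change of TAOK1 is near the median of all genes, -0.31.

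After EID3, the largest rise among protein-coding genes averaging 5 TPM or more was that of ANKRD30BL, at 4.88, 22.3 and 8.65 TPM with DMSO and 164, 134 and 219 with compound 2, a change of 3.95 ± 0.53. TIPARP and CYP1B1, both known targets of the aryl hydrocarbon receptor, rose by 2.44 ± 0.36 and 2.29 ± 0.34. CYP1B1 stood at 49.1, 26.4 and 38.6 TPM with DMSO and at 315, 119 and 168 with compound 2, so the treated libraries varied more than the controls but did not overlap them. BRD2, which encodes a bromodomain protein that binds acetylated histones, stood at 29.6, 28.1 and 26.7 TPM with DMSO and at 121, 119 and 100 with compound 2. FOS, an immediate early transcription factor gene, was at 1.37 to 2.26 TPM with DMSO and at 5.63 to 13.5 with compound 2. CCL2, a chemokine gene, was at 12.9 TPM in DMSO batch B and at 3.32 and 2.81 in the other DMSO libraries, against 18.1 to 41.1 with compound 2. The remaining large rises were RNF103-CHMP3 (2.61), ZBTB34 (2.23), KLHL11 (2.05) and AXIN2 (1.91), and adjusted p-values of these 12 genes ran up to 0.00344 in limma. RNF103-CHMP3 is a readthrough gene that shares sequence with its neighbours, and BRD2 lies in the major histocompatibility region, which also has alternate sequences.

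The largest falls were deep and even across batches. FAM83G stood at 37.3, 45.3 and 35.3 TPM with DMSO and at 2.29, 3.94 and 2.54 with compound 2, a change of -3.38 ± 0.14. GTPBP2, a GTPase gene tied to ribosome rescue, stood at 51.4, 48.2 and 45.8 TPM with DMSO and at 4.13, 5.53 and 4.81 with compound 2. ZC3H4, whose product restrains unproductive transcription, stood at 19.2, 20.7 and 23.1 TPM with DMSO and at 1.05, 1.91 and 1.62 with compound 2. In none of the 3 genes did the groups overlap. TNS4, ZSWIM4, KRCC1, SLFN5, KIF18B, a mitotic kinesin gene, FADD, the adaptor of death receptors, KHNYN and HSD17B1 fell by 3.24, 3.07, 3.06, 3.06, 2.98, 2.95, 2.91 and 2.85 on the log2 scale. Very short and very long genes were both among the falls. RIOX1, a gene under 5 kb, went from 16.0 ± 0.756 to 1.5 ± 0.0772 TPM (SD, n = 3). GSE1, over 200 kb long, went from 47.5 ± 0.707 to 9.35 ± 1.98 TPM, and ZNF609 from 40.4 ± 4.18 to 6.79 ± 0.326.

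**Figure D1:**
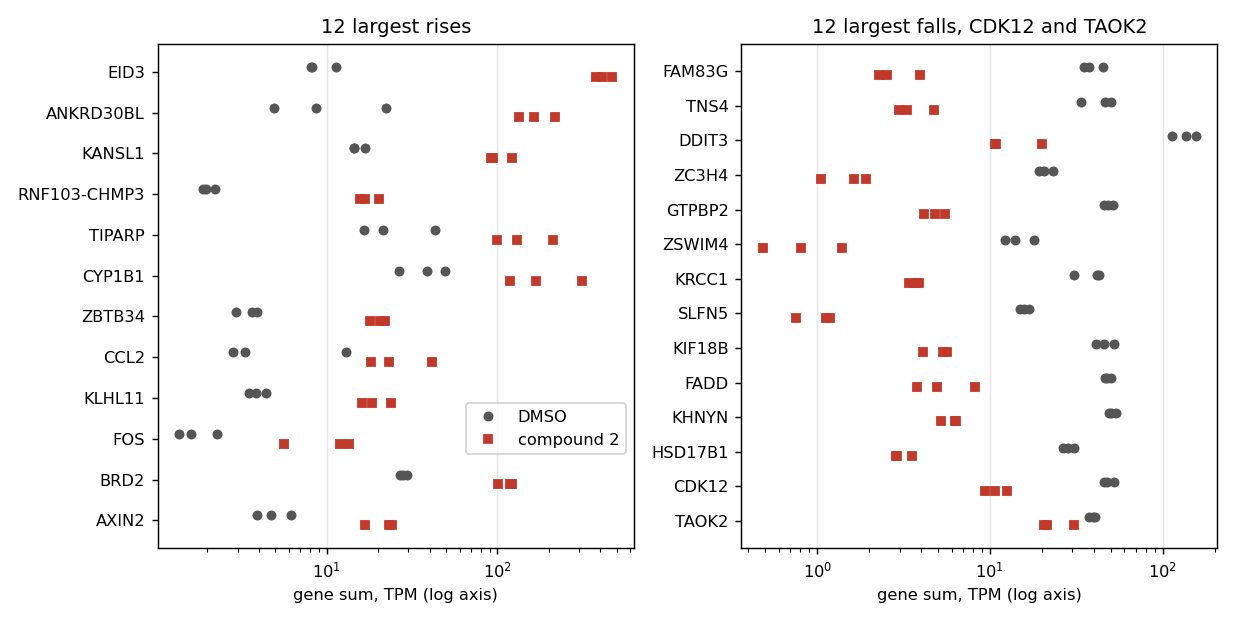
Gene sums in TPM on a log axis for the 12 largest rises (left) and the 12 largest falls with CDK12 and TAOK2 (right), 1 point per library. In every gene shown the 3 compound 2 libraries lie on the same side of the 3 DMSO libraries, and EID3 reaches 378 to 469 TPM from 8.13 to 11.3.

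EID3 is a gene without introns that lies within TXNRD1 on the same strand (chr12:104215779-104350305), and it overlaps 0 exons of the listed TXNRD1 transcripts. TXNRD1, which encodes a thioredoxin reductase, was itself lower with compound 2, at 946 ± 87.9 against 1322 ± 216 TPM. Its log2 change of -0.47 stands beside a median of -0.31 for all genes, so part of it is a matter of scale. Of 80 tested single-exon genes that lie inside a protein-coding gene on its strand, 39 rose and 25 fell, with a median change of 0.45. Of 65 on the opposite strand 16 rose and 31 fell, and of 322 elsewhere 38 rose and 159 fell. Of all genes tested, 12% rose and 51.8% fell. At least 2-fold rises numbered 34 of the 80 on the host's strand (42.5%), 10 of the 65 on the opposite strand (15.4%) and 10 of the 322 elsewhere (3.11%). Among all genes tested they made up 1.31%. Pseudogenes made up 68 of the 80, and 24 of the 80 overlap an exon of the host. CHMP4BP1, inside FBXO34, rose by 4.93 ± 0.19, DNAJC8P2, inside STAG1, by 4.34 ± 0.14 and RPL4P6, inside MRTFA, by 3.50 ± 0.15. Reads of a processed pseudogene can also be assigned from its parent gene, so these values are uncertain. This grouping was made after the values were seen.

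The change of a gene's sum depended little on its length. Among 12447 protein-coding genes, Spearman's rank correlation across genes between the log2 change and the length of the gene on the chromosome, introns included, was -0.03, and that with the number of exons of its most abundant transcript was -0.09. The correlation with the spliced length of that transcript was -0.21. Genes share libraries and are not independent, so these are descriptions. Median changes were -0.08 for 993 genes under 5 kb, -0.29 at 5 to 20 kb, -0.37 at 20 to 50 kb, -0.38 at 50 to 100 kb, -0.31 at 100 to 200 kb and -0.22 for 909 genes over 200 kb. Genes that fell 2-fold or more made up 15.5% of the shortest class, 19.5% of the next and 7.70% of the longest. By exon number, medians were -0.47 for 286 single-exon genes, -0.23 for genes of 4 to 7 exons and -0.42 for those with over 15, and the share of genes that fell was 54.2%, 46.5% and 62.5%. A sum over transcripts hid a division that depended on length. Transcripts that span the gene, from the first 10% to beyond 90% of its length, had a median change of -0.05 in genes under 5 kb, -0.36 at 20 to 50 kb, -0.48 at 100 to 200 kb and -0.36 over 200 kb. Transcripts that end early, within the first 50% of the gene, had a median change of -0.33 in the shortest class, 0.12 at 50 to 100 kb and 0.51 over 200 kb. Early-ending sums were kept only where they averaged 1 TPM or more over the 12 libraries, compound 2 among them. No such limit was set for spanning transcripts. Genes low with DMSO could enter through their rise, as KDM4C (0.248 TPM with DMSO, 12.3 with compound 2). The medians of the 2 kinds are therefore not on equal terms.

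Shares within genes show this more directly. For 5750 protein-coding genes averaging 5 TPM or more and annotated transcripts of both kinds, the share of the gene's TPM in early-ending transcripts was tested as log2 odds with 0.5 TPM added. That share rose in 2506 genes (43.6%) and fell in 389 (6.77%). With 0.1 TPM added in place of 0.5 TPM, it rose in 2088 and fell in 371 of the same genes. In 115 of the 2506 the odds were higher though the plain share was not, which the added 0.5 TPM can give where the gene's total fell. CDK12 is such a case, with an early-ending share of 0.0896% with DMSO and 0 with compound 2. The share was at least 10 points higher in 1235 of the called rises and at least 10 points lower in 58 of the called falls. In 363 genes early-ending transcripts went from under 50% to over 50% of the gene. Of the 2506 rises, 1597 were in genes whose sum fell, 631 in genes whose sum was not called and 278 in genes whose sum rose.

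KDM5A, which encodes a histone H3 lysine 4 demethylase (chr12:280129-389454, minus strand), had the largest rise among genes averaging 10 TPM or more in both groups. Its early-ending share was 5.09%, 2.39% and 4.70% with DMSO and 83.2%, 77.0% and 76.1% with compound 2, while its gene sum did not pass the test (25.7 ± 1.12 and 24.1 ± 1.33 TPM). ESCO1, an acetyltransferase gene of sister chromatid cohesion (chr18:21529281-21600884, minus strand), went from 16.8%, 18.5% and 14.3% to 91.6%, 88.7% and 91.9%. The Mediator gene MED13 (chr17:61942605-62065282, minus strand) went from 1.05%, 3.75% and 6.19% to 77.1%, 81.9% and 74.6%. In all 3 genes the full-length form gave most of the RNA in controls and early-ending forms gave most in treated cells. SYNRG, HELZ, KIF18A, GIGYF2, RALGAPA1 and KDM4C followed, with rises of 66.4 to 69.6 points. HELZ, an RNA helicase gene, differed from KDM5A in that its sum also rose, from 11.5 to 41.6 TPM, as its early-ending share went from 27.0% ± 5.64 to 96.1% ± 0.603 (SD, n = 3). In KANSL1 the early-ending share went from 23.6%, 18.3% and 19.8% to 79.9%, 71.5% and 80.2%, so its raised sum was mostly early-ending RNA. The adjusted p-values of these 10 shares were at most 3.84e-06 in limma.

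Falls of the early-ending share were fewer and mostly smaller. MFAP3 stood at 95.7%, 90.8% and 96.5% with DMSO and at 45.8%, 33.1% and 47.4% with compound 2. TIMM29, ECHDC2 and NFATC2IP fell by 23.2, 17.3 and 17.0 points. A stricter limit on the place of the end, nearer the start of the gene, ended the call for NFATC2IP.

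**Figure D2:**
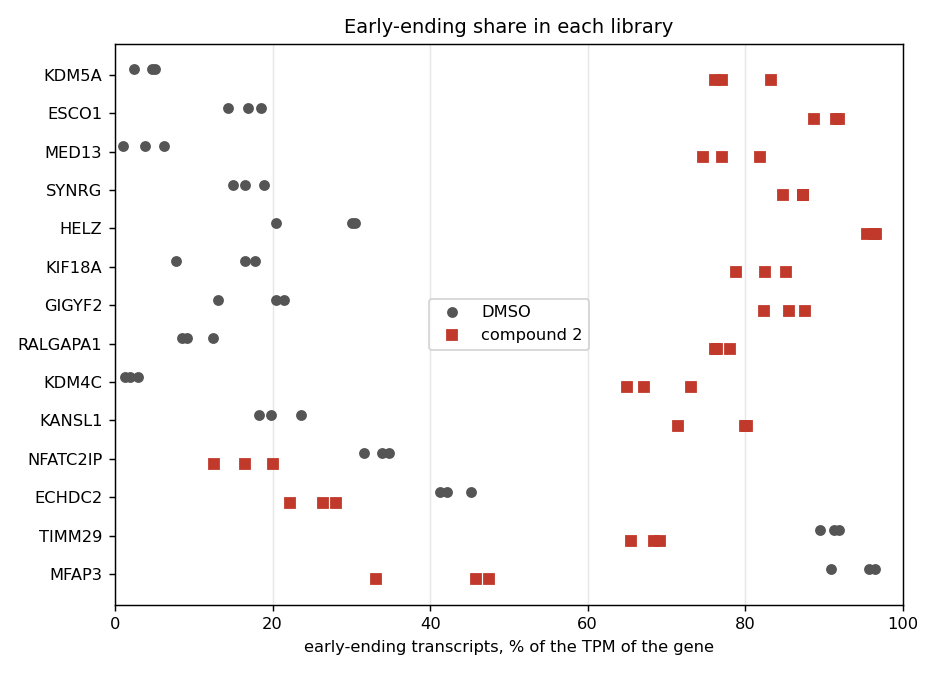
Share of each gene's TPM in transcripts that end within the first 50% of the gene, in percent, 1 point per library, for the rises named in the text, KANSL1 and 4 falls. The rises move from the left, at most 30.5% with DMSO, to at least 65.0% with compound 2, and the falls move the other way.

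Single transcripts show what was exchanged. In KDM5A the full-length KDM5A-201, with 28 exons, was at 14.7, 13.5 and 13.8 TPM with DMSO and at 3.39, 4.47 and 3.39 with compound 2. KDM5A-202, with 3 exons and an end at 21.5% of the gene, was at 0.233, 0 and 0.478 TPM with DMSO and at 16.0, 14.6 and 12.2 with compound 2. The levels of the long and the short form changed places. In CHD2, a chromatin remodeller gene, CHD2-201 (39 exons) went from 39.3, 35.1 and 28.0 TPM to 5.46, 9.99 and 5.63. CHD2-202 (13 exons, ending at 38.4% of the gene) went from 10.1, 4.21 and 5.46 TPM to 59.1, 64.0 and 44.1. HERC4, a ubiquitin ligase gene, had 3 short forms that end within its first 5.32%, HERC4-211, HERC4-212 and HERC4-215, and their shares rose from 3.67%, 10.1% and 7.95% to 14.7%, 30.1% and 31.4%, while HERC4-202 fell from 61.6% ± 2.04 to 10.1% ± 2.53. KANSL1-209 and KANSL1-221 went from 2.07 and 0.463 TPM to 39.8 and 35.9 on average. CDK12 did not show such an exchange: CDK12-201, CDK12-202 and CDK12-209 were at 9.23 to 10.4, 7.26 to 9.0 and 18.2 to 21.7 TPM with DMSO and at 1.87 to 3.35, 1.30 to 1.75 and 4.44 to 6.11 with compound 2. CHD2 and HERC4 were chosen after their values were seen.

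**Figure D3:**
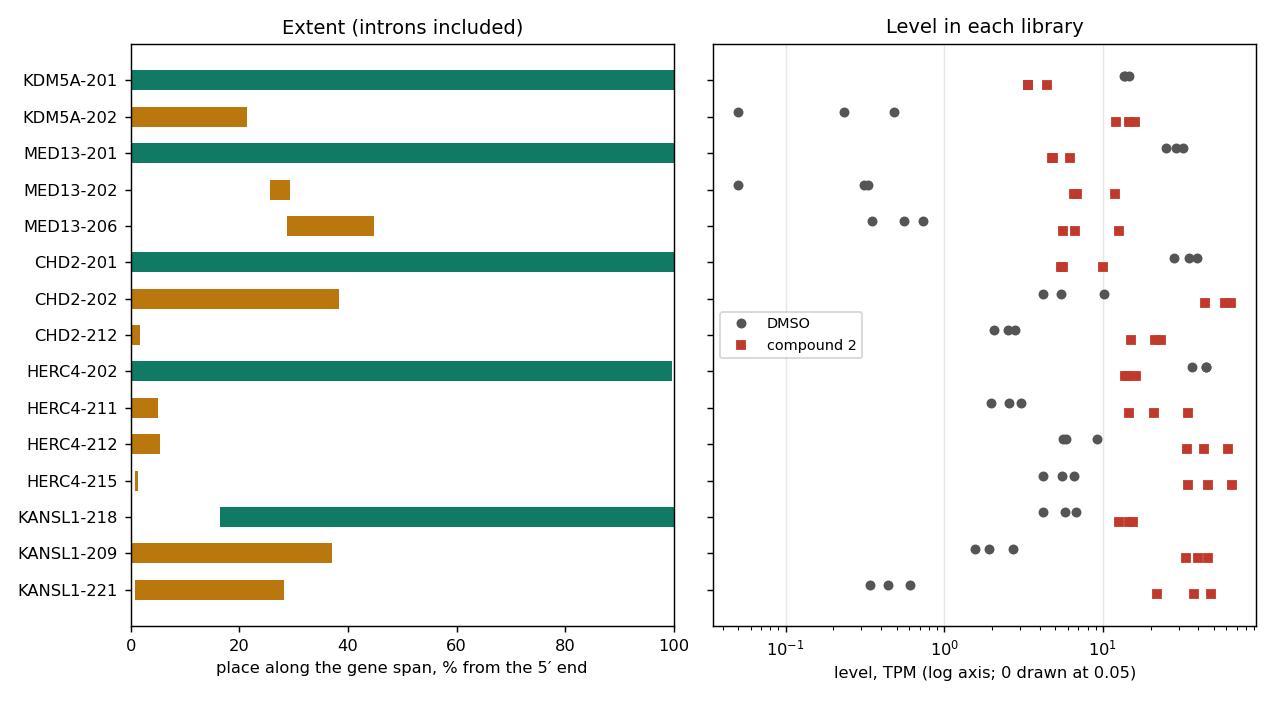
Left, the extent of selected transcripts along their gene in percent of its length from the 5′ end, with long forms in green and short forms in orange. Right, their levels in TPM on a log axis, 1 point per library: the long forms of KDM5A, MED13, CHD2 and HERC4 lie lower with compound 2 and the short forms higher, while the long KANSL1-218 lies higher.

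The annotated 3′ ends of such transcripts show whether the form looks like a finished message. A polyadenylation signal, AATAAA or its variant ATTAAA, lies shortly before most cleavage sites. The last 30 bases of risen early-ending transcripts are given below from GENCODE 29 on GRCh38, 5′ to 3′ on the transcript's strand, with that signal in capitals. The first 5 have it and the last 2 have none in this window. They lie at chr15:92949205-92949234 (plus), chr17:62010427-62010456 (minus), chr10:68067689-68067718 (minus), chr17:37584322-37584351 (minus), chr9:6815120-6815149 (plus), chr12:365970-365999 (minus) and chr17:46152904-46152933 (minus).
CHD2-202: attacagaAATAAAagatgattgagagaaa
MED13-206: atttacaagAATAAAttcattgagtattaa
HERC4-211: tcattccAATAAAagcattttggtcacata
SYNRG-219: gcaaatgtAATAAAggagtttaccatttaa
KDM4C-203: ctcaatcATTAAAaaaatgttatatttgaa
KDM5A-202: ttgaagtcacattatgaaagaattctctac
KANSL1-209: gggatagatggaatgagtttcatcgtgatt
KDM5A-202 is marked in GENCODE as having no known 3′ end. The forms shown are selected examples, and the signal is more frequent among them than among risen early-ending transcripts at large. HERC4-215, HERC4-212 and MED13-202 have no signal in their last 30 bases, though each rose by more TPM than the form shown for its gene. ESCO1-203, HELZ-202 and RALGAPA1-213, which also rose, have none either. Within the last 50 bases, AATAAA or ATTAAA on the transcript's strand was found in 28.7% of 1950 early-ending transcripts whose share rose, in 19.3% of 3767 early-ending ones not called and in 24.3% of 563 that fell. The share was 64.7% among 15368 spanning transcripts and 43.4% among all 40114 with a place along their gene. Where RNA ended was not measured: the ends are those of the annotation, and the authors' program divides reads among listed transcripts, so RNA that stops at an unlisted site can be counted under a listed short form.

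By transcript, 6744 of 40564 tested shares within a gene rose (16.6%) and 7436 fell (18.3%). The transcripts tested averaged 1 TPM or more over the 12 libraries, compound 2 among them. Short forms near 0 with DMSO could enter through their rise, as KDM4C-203 (0.066 TPM with DMSO, 11.4 with compound 2). That can raise the percentages that rose, and by how much was not tested. Within this set, the direction followed the place of the annotated end. Among transcripts that end in the first 10% of the gene, 42.4% rose and 6.53% fell, and the share that rose dropped to 27.7% for ends at 40% to 50% and 11% for the last 10%, where 23.0% fell. By annotated start, 16.9% of transcripts from the first 10% rose and 17.0% fell, against 9.82% and 34.8% of those that start in the last 10%. Risen transcripts had a median of 5 exons and a spliced length of 1085 bases, fallen ones 7 exons and 2496 bases. Shares within a gene have a fixed total, so a large fall of 1 transcript brings rises of others. Some of the largest rises and falls of single shares were in the same gene. SEC24A-202, KLF3-201 and ROR1-201 fell to 10.2%, 14.5% and 13.0% of their genes from 78.5%, 87.5% and 90.6%, while SEC24A-201, KLF3-203 and ROR1-202 rose to 80.8%, 84.1% and 83.8%. SRGAP1-207, which spans a gene of a GTPase-activating protein in cell migration, went from 92.0% ± 0.150 to 9.20% ± 5.98. ERN1-201, the long form of the gene for the stress sensor IRE1, went from 72.8% ± 1.67 to 6.12% ± 0.254, RPTOR-201, of an mTOR complex subunit gene, from 88.2% ± 1.05 to 20.1% ± 4.82, and LRCH1-201 and PTPN14-201 from 95.7% and 80.1% to 23.1% and 13.1%. LATS1-202, a short form of a Hippo kinase gene, rose from 23.3% to 90.1%, RSF1-208 from 7.49% to 71.2% and CEMIP2-211 from 4.98% to 68.1%. Adjusted p-values of the shares named in this paragraph were at most 1.63e-06 in limma.

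**Figure D4:**
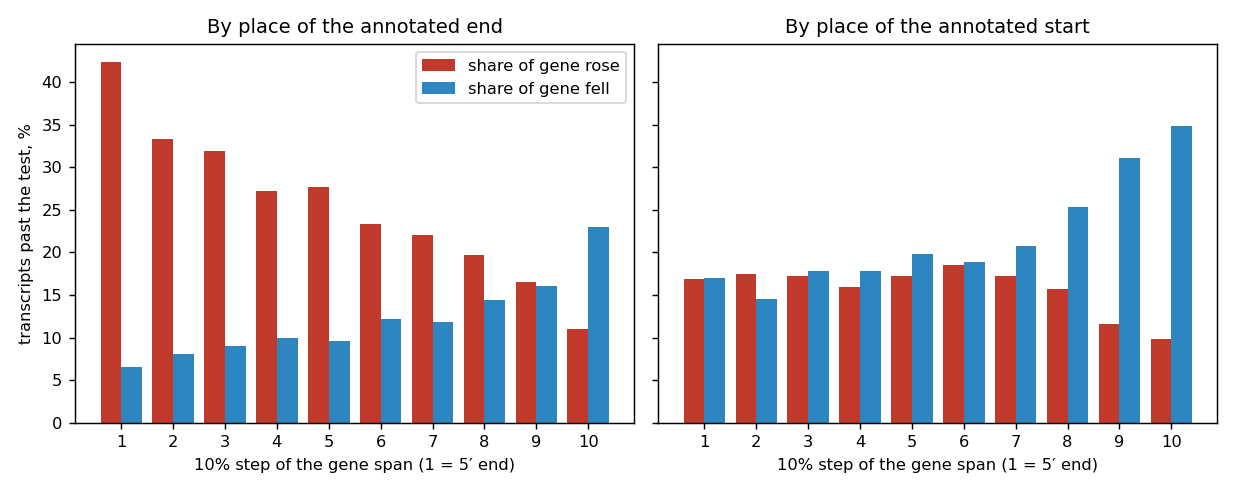
Percentage of transcripts whose share of the gene rose (red) or fell (blue) with compound 2 by the 10% step of the gene that holds the annotated end (left) or start (right). Only transcripts averaging 1 TPM or more over the 12 libraries, compound 2 among them, are counted. Red bars drop from 42.4% to 11% from the first to the last step by end, and blue bars climb to 34.8% in the last step by start.

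Transcripts that start in the last 50% of the gene moved the other way. Their share rose in 1236 of 6515 genes (19%) and fell in 1542 (23.7%), and was at least 10 points higher in 206 and at least 10 points lower in 424. The plain share was not higher in 263 of the rises, and with 0.1 TPM added in place of 0.5 TPM 769 rose and 1699 fell. Among 3751 genes with a class mean of at least 1 TPM, 582 rose and 1240 fell. SYNE1, a nuclear envelope gene, had the largest fall, from 71.1%, 73.7% and 72.9% to 13.9%, 7.38% and 15.1%, while SYNE1-214, in the middle of the gene, rose from 14.1% ± 1.54 to 81.1% ± 4.68. GABRE, USP6NL, MYCBP2 and RSF1 fell by 56.8, 50.6, 46.9 and 43.5 points. Rises ran against the general pattern. ABL2, a tyrosine kinase gene, went from 27.3%, 26.4% and 27.2% to 70.5%, 73.8% and 56.5%, with no overlap. SGMS1, SRGAP1, TRAF3, CCDC186, SPSB1, SEMA4B, MAFK and PREP rose by 36.1, 32.9, 31.6, 30.1, 29.2, 26.0, 25.9 and 24.7 points. Adjusted p-values of these late-starting shares were at most 2.73e-04 in limma. With a stricter limit on the place of the start, nearer the end of the gene, the call for SRGAP1 was lost and SEMA4B changed sign.

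The early-ending share followed gene length closely. It rose in 16.4% of 220 genes under 5 kb, 22.2% of 1486 at 5 to 20 kb, 38.7% of 1681 at 20 to 50 kb, 58.3% of 1090 at 50 to 100 kb, 66.2% of 795 at 100 to 200 kb and 68.4% of 478 over 200 kb. Mean changes in points were -0.04, 0.88, 4.36, 9.13, 12.6 and 13.4 in the same order. Averaged over the genes over 200 kb, the share was 18.3%, 17.5% and 18.0% in the DMSO libraries and 32.0%, 31.9% and 30.0% in the compound 2 libraries. Averaged over those under 5 kb it was 10.1%, 9.92% and 10.0% with DMSO and 10.4%, 9.97% and 9.56% with compound 2. The groups stood apart in the long genes and overlapped in the short ones. The two-sided exact permutation p was 0.1 for the first, the smallest that 3 against 3 libraries allow, and 0.8 for the second. Spearman's rank correlation across genes between the log2 odds change and gene length was 0.43, against 0.23 with exon number, and length and exon number were themselves related at 0.46. Within a length class, exon number had no common direction. At 5 to 20 kb the share of genes with a rise was 32.7% for 2 to 3 exons and 14.6% for over 15, at 20 to 50 kb it was 37.1% and 37.9%, and over 200 kb 60.0% and 77.3%. The late-starting share gave a correlation of -0.06 with length. Long genes have more intron sequence and more annotated short forms, and that part in the result was not tested.

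**Figure D5:**
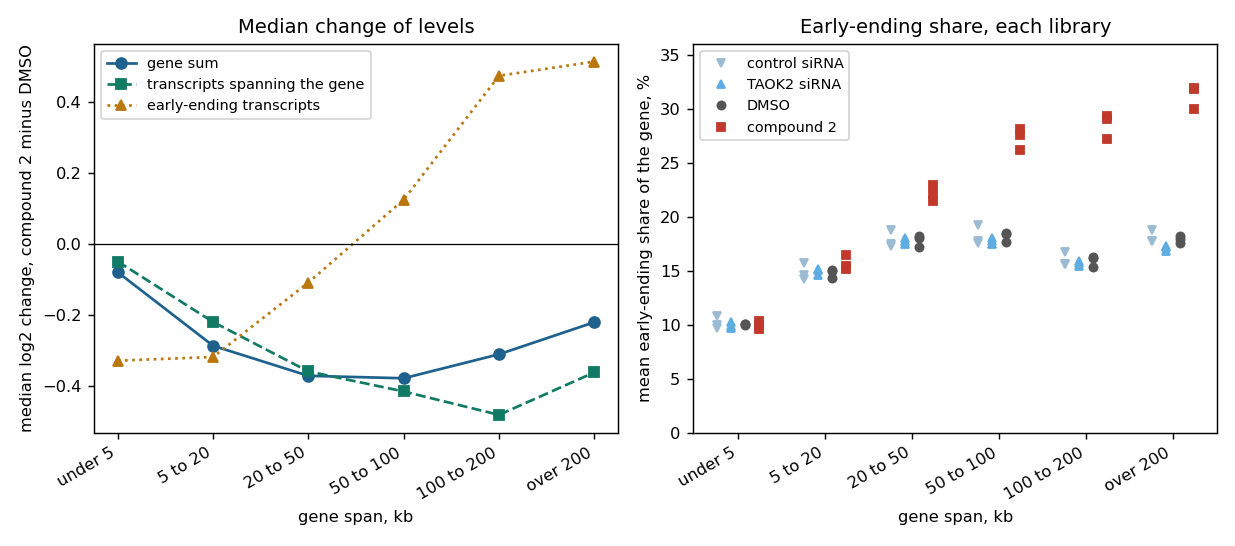
Results by length of the gene on the chromosome in kb, introns included: left, the median log2 change of gene sums, spanning and early-ending transcripts with compound 2 minus DMSO; right, the mean early-ending share in percent, 1 point per library of the 4 groups. Early-ending transcripts, kept where their sum averaged 1 TPM or more over the 12 libraries, climb from -0.33 to 0.51 on the left. On the right the compound 2 libraries lie above all others in genes over 20 kb, reaching 30.0% to 32.0% over 200 kb. There the TAOK2 siRNA libraries lie lowest at 16.9% to 17.2%.

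Depletion of TAOK2 by siRNA did not give this pattern. Against control siRNA, the early-ending share rose in 14 of 5750 genes (0.243%) and fell in 6 (0.104%), and the rank correlation of its change with gene length was -0.13. Averaged over the genes over 200 kb, the share was 17.2%, 17.2% and 16.9% with TAOK2 siRNA and 18.7%, 17.8% and 17.8% with control siRNA, lower without overlap. Tested directly, the effect of compound 2 exceeded that of depletion in 1977 genes (34.4%) and lay below it in 299 (5.2%). For KDM5A the knockdown changed the share by 0.0128 points, and its adjusted p for the difference of effects was 3.58e-07 in limma. DDIT3 fell under knockdown too, by 0.67 on the log2 scale (adjusted p = 0.0287), but less than with compound 2 (adjusted p of the difference 1.48e-05). EID3, KANSL1 and CDK12 did not pass the test under knockdown (0.18, 0.09 and -0.28). TAOK2 itself fell by 1.75 under knockdown, more than with the compound (adjusted p of the difference 0.00114 in limma). The compound and siRNA groups do not share controls, and the siRNA groups were also transfected.

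Lists of the transcription machinery are given beside all genes tested, of which 12% rose and 51.8% fell. Of 19 transcription kinases and cyclins, 4 rose and 9 fell, with a median of -0.30 beside -0.31 for all genes, and 6 rose and 6 fell after centring on the median difference. CDK9, the catalytic subunit of the elongation factor P-TEFb, fell from 64.8 ± 1.26 to 27.3 ± 4.39 TPM, and MEPCE, of the 7SK complex that restrains it, from 63.1 ± 5.13 to 17.2 ± 4.51. CCNT2, a cyclin of P-TEFb, rose from 20.4 ± 1.92 to 46.9 ± 6.67. CCNK and CDK13, the partner and the close relative of CDK12, rose by 0.30 and 0.24. Of 43 elongation and early termination genes, 6 rose and 23 fell (median -0.26, and 16 and 16 after centring). ZC3H18, RECQL5 and INTS6 fell by 2.25, 2.18 and 2.16, and SRRT, the nuclear cap-binding partner ARS2, rose by 1.20. The early-ending share rose in 17 and fell in 1 of 29 of this list with both kinds of transcript, where 43.6% of all 5750 genes rose and 6.77% fell, as in PHF3 from 8.87% ± 2.63 to 54.7% ± 0.518 and PCF11 from 60.9% ± 3.77 to 95.1% ± 1.95. Of 12 RNA polymerase II subunits 4 rose and 4 fell with a median of 0.11, but 8 rose and 0 fell after centring, and 3 rose and 2 fell without compound 2 of batch A. POLR2A, the largest subunit, rose by 0.75, and POLR2B, called lower at -0.31, changed by 0.04 and 0.20 under the 2 centrings.

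Of 22 cleavage and polyadenylation genes, 5 rose and 11 fell (median -0.24; 10 and 9 after centring). CSTF2T and CPSF7 fell by 2.11 and 1.56, and RBBP6 rose by 1.47 from 20.8 ± 1.15 to 59.6 ± 7.47 TPM. The early-ending share rose in 7 of 17 of these genes, a share near the 43.6% of all genes. It rose in RBBP6 from 19.1% ± 4.64 to 70.9% ± 1.77, in CSTF3 from 33.8% ± 3.58 to 85.2% ± 3.03 and in WDR33 from 30.2% ± 0.752 to 62.5% ± 2.32. RBBP6 thus had a higher sum made mostly of short forms. Among 9 genes of the non-specific lethal complex, 2 rose, KANSL1 and KANSL2, and 6 fell (4 and 4 after centring). The early-ending share of KANSL2 rose as in KANSL1, from 9.28% ± 1.85 to 42.4% ± 5.41. Among 8 genes of the SMC5/6 complex EID3 was alone in rising and 6 fell, with a median of -0.44 (2 and 3 after centring). NSMCE4A, called lower, changed by 0.02 when libraries were centred on their medians.

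DNA repair genes fell broadly. Of 35 genes of homologous recombination and the Fanconi anaemia pathway, 1 rose and 32 fell, with a median of -0.75 against -0.31 for all genes, and 2 rose and 21 fell after centring. RAD52, an annealing factor, stood at 20.4, 18.5 and 20.4 TPM with DMSO and at 2.49, 3.07 and 3.33 with compound 2. SLX4, a scaffold of structure-specific nucleases, stood at 8.83, 7.26 and 8.80 TPM with DMSO and at 1.12, 1.02 and 1.12 with compound 2. FANCF, of the Fanconi core complex, went from 10.7 ± 0.994 to 1.80 ± 0.196 TPM. The treated and control libraries of these genes did not overlap. The early-ending share rose in 17 and fell in 1 of 28, beside 43.6% and 6.77% of all genes. In ATR, the kinase gene of the replication checkpoint, that share was 2.95%, 6.39% and 2.36% with DMSO and 54.9%, 54.1% and 46.6% with compound 2, while its sum changed by -0.22. In FANCM, a translocase gene, it went from 34.6% ± 5.49 to 85.8% ± 2.86. FANCA was the 1 gene whose sum rose (0.22), and its early-ending share rose from 37.7% ± 1.15 to 66.2% ± 4.69.

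Among 23 regulators of the integrated stress response, 1 rose and 13 fell (56.5%, beside 51.8% of all genes; median -0.45, with 5 and 9 after centring and a median of 0.06 when libraries were centred on their medians). DDIT3, GTPBP2, CHAC1, a glutathione-degrading enzyme gene, and TRIB3, a pseudokinase gene, led the falls. CHAC1 went from 48.1 ± 8.71 to 10.1 ± 2.47 TPM and TRIB3 from 313 ± 22.2 to 101 ± 25.2. ATF4, the central factor, stood at 453, 441 and 460 TPM with DMSO and at 360, 391 and 347 with compound 2, a change of -0.30 that is near the median of all genes. CEBPG, a partner of ATF4, was the 1 that rose, by 0.59. Of 21 genes of amino acid synthesis and transport, 0 rose and 20 fell with a median of -1.01 (1 and 15 after centring). GPT2, PCK2, SLC6A9, a glycine transporter gene, and CBS fell by 2.27, 2.19, 2.14 and 1.88. Of 20 cytosolic aminoacyl-tRNA synthetases 0 rose and 16 fell (median -0.47; 2 and 9 after centring, and a median of 0.04 when libraries were centred on their medians). AARS1 fell from 387 ± 21.0 to 132 ± 10.4 TPM, CARS1 from 47.8 ± 5.86 to 13.3 ± 1.98 and MARS1 from 304 ± 14.7 to 120 ± 11.9. Of 17 mitochondrial synthetases 0 rose and 13 fell (median -0.49; 3 and 7 after centring, with a median of 0.02 on library medians). MARS1 and DDIT3 lie on opposite strands and their ends overlap, so reads there could be shared if strand was not used.

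ATF4 with C/EBP factors binds the sequence TGATGNAA, so the promoters of these lists were searched for it on both strands, from 250 bases before to 50 after the gene start in RefSeq (GRCh38.p14). It was found in 6 of 16 cytosolic synthetase promoters with an entry (37.5%), in 3 of 15 for amino acid supply, in 3 of 21 for stress regulators and in 1 of 14 mitochondrial synthetases. Of all 27305 promoters 3.67% held it, and of the 10031 of tested genes 1.61%. A match is a description of letters and not a bound site. Matches were not confined to deep falls. PPP1R15B, TARS1, SLC3A2, YARS2 and NARS1 held one and changed by -0.15, -0.22, -0.27, -0.27 and -0.36. MARS1, IARS1 and SLC7A1, also with a match, changed by -1.34, -0.70 and -0.69. DDIT3, GTPBP2, TRIB3, GPT2, PCK2, SLC6A9 and CBS were not among the genes with a match, though some genes of each list had no promoter entry. The matches of 4 genes that fell and of ATF3, which did not pass the test (0.60, adjusted p = 0.188 in limma), are shown in the gene's direction with the motif in capitals, read as TTGCATCA where it lies on the opposite strand. They lie at chr16:70289675-70289704 (minus), chr11:3057407-3057436 (minus), chr15:40953251-40953280 (plus), chr7:97872458-97872487 (minus) and chr1:212565205-212565234 (plus).
AARS1: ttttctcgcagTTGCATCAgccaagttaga
CARS1: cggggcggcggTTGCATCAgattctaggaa
CHAC1: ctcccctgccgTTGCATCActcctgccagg
ASNS: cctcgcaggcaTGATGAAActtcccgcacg
ATF3: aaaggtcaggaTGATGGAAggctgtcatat

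Other stress and survival lists differed in direction. They are given beside all genes tested, of which 12% rose and 51.8% fell, with a median of -0.31. Of 22 unfolded protein response genes 6 rose and 6 fell (median 0.05), with XBP1, its main transcription factor, falling by 1.21 and the chaperone gene HSPA5 rising by 0.24. After centring, 13 rose and 4 fell. Of 28 immediate early genes 9 rose and 7 fell (16 and 1 after centring), with IER5 and FOS rising by 1.22 and 1.99. Apoptosis regulators fell broadly: of 28, 2 rose and 20 fell (71.4%) with a median of -0.82 (4 and 16 after centring). BCL2L1, a survival gene, stood at 421, 376 and 422 TPM with DMSO and at 99.6, 128 and 114 with compound 2. FADD and CASP8, of the death receptor pathway, fell as well, by 2.95 and 1.58, so members that promote and members that restrain cell death moved together. Of 31 proteasome subunits 12 rose (38.7%) and 2 fell with a median of 0.10, and 28 rose and 0 fell after centring. Of 27 SR proteins and speckle components, which act in splicing, 12 rose (44.4%) and 9 fell (14 and 6 after centring). SRSF3 and THRAP3 fell by 1.46 each and LUC7L3 rose by 1.33. Of their 17 kinases and phosphatases 5 rose and 5 fell (9 and 5 after centring). Of 26 p53 targets 5 rose and 13 fell with a median of -0.31, that of all genes (9 and 9 after centring). ZMAT3 rose by 1.65 from 2.71 ± 0.159 to 10.7 ± 0.0610 TPM. Of 30 NRF2 targets 7 rose and 8 fell (13 and 4 after centring). Of 23 genes of the TAO kinase cascades 3 rose and 11 fell (median -0.33; 7 and 6 after centring), and MAP2K7, a JNK pathway kinase gene, fell by 1.40, whereas YAP1, called lower at -0.44, changed by 0.06 on library medians. The early-ending share rose in 6 of 10 of that list, beside 43.6% of all genes, in STK4 from 11.2% ± 3.22 to 41.2% ± 3.69 and in SAV1 from 39.4% ± 4.04 to 70.9% ± 0.945.

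Summed over each library, the classes moved modestly. Early-ending transcripts of protein-coding genes held 8.0%, 7.81% and 8.06% of TPM with DMSO and 8.94%, 9.04% and 8.75% with compound 2, and late-starting ones 9.17%, 9.05% and 9.08% against 8.37%, 8.63% and 8.22%. Neither class overlapped between the groups. The mean gene length weighted by TPM was 36.1, 35.7 and 35.2 kb with DMSO and 31.8, 33.2 and 31.2 kb with compound 2, and the mean exon number 7.64, 7.67 and 7.65 against 6.92, 7.09 and 7.01. Single-exon transcripts held 12.5% ± 0.471 with DMSO and 14.0% ± 0.594 with compound 2, and mitochondrially encoded RNA, which has no introns, was at 10.4%, 9.68% and 9.45% with DMSO and 11.8%, 10.5% and 10.5% with compound 2. Without mitochondrial RNA the difference in single-exon transcripts was 0.507 points in place of 1.46. Nonsense-mediated decay transcripts were at 3.79% ± 0.0843 and 3.56% ± 0.13 (SD, n = 3) without overlap. Retained-intron transcripts (4.90% ± 0.117 and 4.72% ± 0.336) and processed pseudogenes (0.519% ± 0.149 and 0.720% ± 0.165) overlapped. For the 7 measures without overlap the two-sided exact permutation p was 0.1, the smallest this design can give. After Benjamini-Hochberg adjustment over 9 measures it was 0.129.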

How the data were processed

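Per the submitters' processing notes, the authors computed transcript abundances in TPM with kallisto on GRCh38.p14, with no version stated in the sources used here. Per the labels' protocols, Trizol RNA was selected for poly(A) and sequenced as 150 bp pairs to at least 100000000 reads. Each library of the deposited TPM table sums to 1000000. Of 188753 transcripts, 169797 (89.96%) matched GENCODE 29 by identifier, with 97.52% to 97.57% of TPM in the 6 libraries; the rest were left out. TPM was summed to 35579 genes.

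Tests used limma 3.58.1 (statmod 1.5.0, R 4.3.3) with group means over all 12 whole-cell libraries, trend and robust moderation and Benjamini-Hochberg adjustment at 0.05. Gene sums were taken as log2(TPM + 1) where the mean was at least 1 TPM. Shares were log2 odds with 0.5 TPM added, for transcripts averaging 1 TPM or more in genes averaging 5 or more. Scripts were tested on simulated data. Changes carry limma's moderated standard error (SE), and levels the standard deviation (SD) of 3 libraries.

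Batches A, B and C follow the replicate numbers in the titles. After group means were removed, the DMSO and the compound 2 library of a batch correlated at 0.631 (A), 0.639 (B) and 0.524 (C). Libraries of a batch thus go together. A fit with batch as a block was an alternative, as were other pseudocounts, filters and scalings and leaving out each library.

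Named genes are the 12 largest rises and falls of protein-coding sums (mean of at least 5 TPM, same sign in each batch), the 10 largest changes of transcript shares in each direction, the 10 largest rises and 5 largest falls of early-ending and late-starting shares (all shares in genes averaging 10 TPM or more in both groups), the extremes of each length class, up to 4 members of each list by adjusted p, and DDIT3, EID3, KANSL1, CDK12 and TAOK2. DDX3Y was left out. Other list members, and CHD2 and HERC4, were named after their values were seen. The groups, lists and rules were chosen with earlier results of these data known, and some named genes and list members are not reported here.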

Additional observations from a re-analysis of the deposited data

How the results depend on the processing

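The number of genes called ran from 7786 to 8606 when each library was left out in turn, that of 2-fold calls from 2305 to 2693, that of transcript shares from 11929 to 13237, of early-ending shares from 2583 to 2787 and of late-starting shares from 2374 to 2619. With the replicate block the counts were 8828, 2398, 14474, 2950 and 2824, and 2364 for the difference from knockdown, so pairing changed none by over 1.5 times. Centring reduced 2-fold calls to 1574 (on the median difference, added after the data were seen) and 1454 (on library medians). Requiring a class mean of at least 1 TPM, also added later, gave 1822 late-starting calls, and with 0.1 TPM added 1835 late-starting and 1867 early-ending calls; fewer genes were tested. The relation with length was -0.0630 for the span of the most abundant transcript. The relation with exon number was -0.13 at a mean of at least 5 TPM, -0.0750 with 0.1 TPM added, -0.0778 with the largest annotated exon number and -0.0947 to -0.0890 without each library. The relation of early-ending odds with gene length ranged from 0.376 to 0.472 over 15 alternatives. Without mitochondrial transcripts, single-exon and early-ending library shares differed by 0.507 and 1.17 points. The retained-intron difference ranged from -0.33 to 0.01 without each library. Of 2352 alternative values of 172 named results, 2318 kept direction and call, 16 newly passed, 13 no longer passed and 5 changed sign: POLR2B (0.0444 and 0.203), NSMCE4A (0.0235), YAP1 (0.0650) and SEMA4B late-starting (-0.0781). The cause was not tested. Read depth is not kept in TPM, so it limits all low values to an unknown degree.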
